A study of Arabidopsis thaliana with 6 samples.

Results

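The calmodulin-like (CML) genes of Arabidopsis thaliana encode small calcium sensors, and 7 of them carried a named probe set on the array: CML23, CML30, CML37, CML38, CML41, CML42 and CML43. They were taken by name, as every probe set with a single annotated gene whose symbol is CML followed by a number, out of 13513 probe sets with a single gene name, which stand for 13356 genes. Each gene had 1 probe set. The RefSeq gene table used for names holds 8 genes with such a symbol, and the remaining gene, CML11, was not analysed here. Signal was measured in whole rosettes of the wild type Col-0 and of the sid2.2 mutant, in which ICS1, an isochorismate synthase of salicylic acid synthesis, is mutated. Plants of both genotypes grew on low sulfate (0.016 mM) under short days of 8 h light and 16 h dark and were harvested 60 days after sowing, so no group had ample sulfate. Of 3 consecutive cultures, each gave 1 array per genotype, hybridised with RNA of a pool of more than 6 rosettes. An array therefore averages leaves of all ages of several plants, and fewer cells of a type and less RNA per cell cannot be told apart. Arrays are named by genotype and replicate, and the replicate number is that of the culture.

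CML proteins bind calcium through EF hands, the helix-loop-helix motif they share with calmodulin, and have no other known functional domain. A rise of cytosolic calcium after wounding, touch, low oxygen or contact with microbes loads these proteins, which then alter the activity of their targets. Calcium signalling and salicylic acid meet in leaves: calmodulin-binding transcription factors act on the ICS1 gene during immune responses. Several CML genes are themselves induced quickly by such stimuli, which makes their transcripts markers of a recent stimulus as well as parts of the signalling chain.

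The deposited values are linear signal intensities per probe set, and every difference below is on the log2 scale, sid2.2 minus Col-0. Of the 7 genes, 6 passed the low-signal limit (a geometric mean intensity of 79.7 over the 6 arrays) and entered the fit over 13647 probe sets. CML43 lay under the limit. The 95th percentile of 27 bacterial control probe sets, which measure no plant transcript, was between 27.9 and 39.9 per array. All 7 genes were above it on every array, from 1.66 times (CML43 on sid2.2 replicate 3) to 28.5 times (CML42 on Col-0 replicate 3). Probe sets differ in their affinity, so the signals of different genes are not set against each other as amounts of RNA.

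Of 10 listed rosette leaf genes 4 were named, all of photosynthesis, and their signals were between 5038 and 24346 on all arrays. None was called, and by limma the smallest p was that of SBPASE (difference -0.37, SE 0.31, adjusted p = 0.826), followed by RCA at 0.20 (SE 0.27, adjusted p = 0.885) and LHCB4.1 at 0.15 (SE 0.21, adjusted p = 0.887). The root genes PYK10 and AGL42 ranged from 32.0 to 535, with limma differences of 0.14 (adjusted p = 0.971) and 0.51 (adjusted p = 0.775), and flower and seed markers had no named probe set. Over all tested probe sets, Col-0 replicate 3 correlated less with the other Col-0 arrays (mean Pearson r 0.910) than with the sid2.2 arrays (0.952). An r over all probe sets takes in every source of variation, so it does not test the genotype label. ICS1 itself was not analysed here, so the genotype labels were not checked on the mutated gene. The arrays of culture 2 had the lowest mean r with the other genotype, 0.90 for sid2.2 replicate 2 and 0.902 for Col-0 replicate 2, and also with all other arrays (0.915 and 0.913). Values without each of these 3 arrays are therefore given beside the difference of each tested CML gene. As a check of RNA integrity, signal at the 3′ end of actin was divided by that at the 5′ end, which gave 4.81 to 4.91 on the Col-0 arrays against 5.34, 6.51 and 8.34 for the mutant. An older actin pair on the same array gave 15.0 to 24.7 in Col-0 and 17.3 to 37.1 in sid2.2, with overlap. The same ratio for GAPDH was 2.33 to 2.81 on the Col-0 arrays against 2.93, 3.26 and 3.87 for the mutant, without overlap. The part of RNA quality in the differences was not tested.

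CML38 had the largest difference of the 7 genes, with higher signal on every sid2.2 array than on any Col-0 array. CML38 (AT1G76650, chromosome 1) encodes a sensor that is induced by wounding and by low oxygen and is found in cytosolic granules of oxygen-starved cells. Its intensities in Col-0 replicates 1, 2 and 3 were 167, 175 and 107 (mean 149 ± 37.3, SD, n = 3). In sid2.2 they were 287, 702 and 390 (mean 459 ± 216, SD, n = 3). The genotypes did not overlap, and the highest signal, on sid2.2 replicate 2, was 6.58 times the lowest, on Col-0 replicate 3. The geometric mean was 2.93 times higher in sid2.2, a log2 difference of 1.55 with a 95% interval of 0.72 to 2.38. It did not pass the limma test over all probe sets (SE 0.37, unadjusted p = 0.00235, adjusted p = 0.402).

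Within cultures 1, 2 and 3 the CML38 difference was 0.78, 2.0 and 1.87, so the sid2.2 pool was 1.72, 4.01 and 3.65 times the Col-0 pool grown beside it. All cultures had the same direction, with the smallest difference in culture 1. By size of the difference, CML38 stood at rank 159 of 13647 probe sets, with 1.16% larger in either direction. Its residual SD of 0.54 exceeded that of 82.7% of probe sets, against a median of 0.33 over all tested. Without Col-0 replicate 2 the difference was 1.68 (limma adjusted p = 0.990), without Col-0 replicate 3 it was 1.33 (limma adjusted p = 0.105), and without sid2.2 replicate 2 it was 1.2 (limma adjusted p = 0.961). With sid2.2 replicate 2 and Col-0 replicate 3 both left out, a choice made after the data had been seen, it was 0.97 (limma adjusted p = 0.165).

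CML37 was the other gene whose genotypes did not overlap in signal intensity. CML37 (AT5G42380, chromosome 5) is a close relative of CML38 that acts as a positive regulator of jasmonate-linked defence against chewing insects and of drought responses. Its intensities were tight in Col-0, with 69.3, 63.5 and 60.2 (mean 64.3 ± 4.59, SD, n = 3), 1.89 to 2.25 times the bacterial control level. In sid2.2 they were 84.9, 185 and 109 (mean 126 ± 52.2, SD, n = 3), or 2.16, 6.63 and 2.74 times that level. Relative to that level the genotypes overlapped, with sid2.2 replicate 1 (2.16) below Col-0 replicates 1 and 2 (2.25 and 2.21). The difference was 0.90 (SE 0.34, 95% interval 0.12 to 1.68), which is 1.86 times higher, and it did not pass (limma unadjusted p = 0.0289, adjusted p = 0.627). Within cultures 1, 2 and 3 it was 0.29, 1.54 and 0.86, in the same order of cultures as for CML38. Without Col-0 replicate 2 the difference was 0.89 (limma adjusted p = 0.990) and without Col-0 replicate 3 it was 0.85 (limma adjusted p = 0.293). Without sid2.2 replicate 2 it was 0.58 (limma adjusted p = 0.998), and without that array and Col-0 replicate 3 it was 0.54 (limma adjusted p = 0.558).

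**Figure D1:**
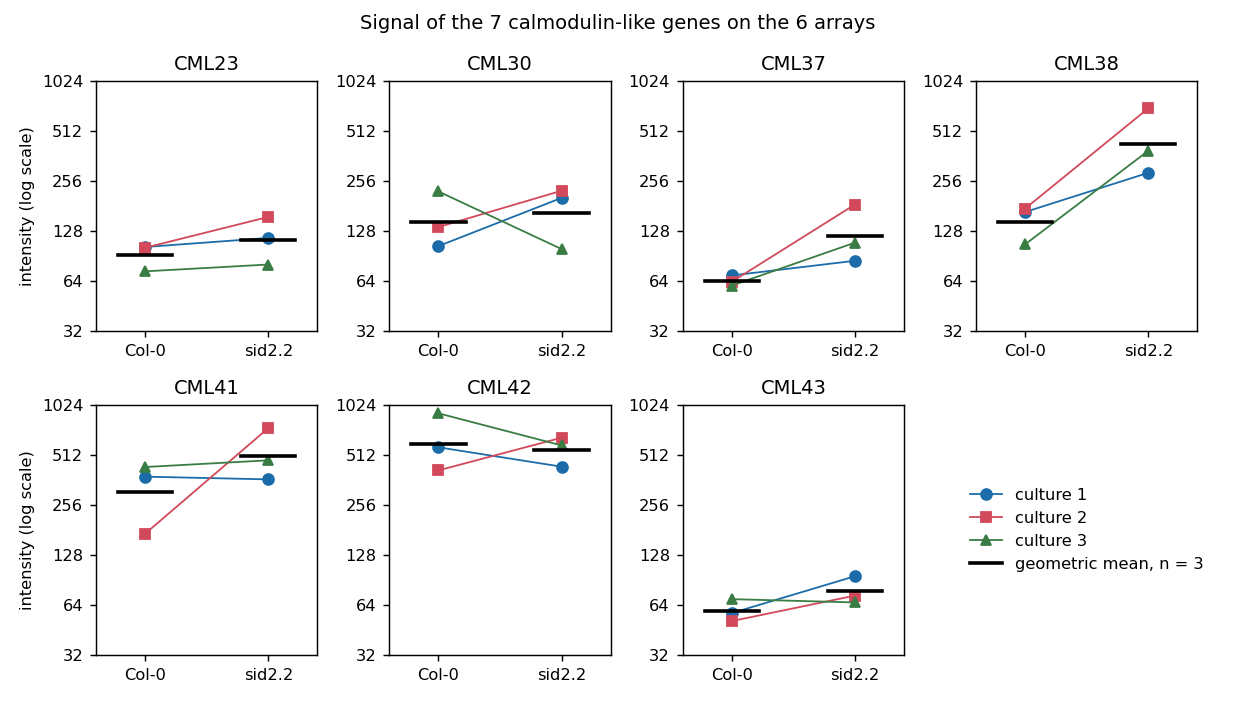
Signal intensity (log scale) of the 7 CML genes, with Col-0 and sid2.2 joined by a line within each culture and black bars for the geometric mean of 3 arrays. For CML38 and CML37 all sid2.2 points lie above all Col-0 points, while the genotypes overlap for the other 5 genes.

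The next gene on the chromosome beside CML38 is AT1G76640, which the gene table lists under the synonym CML39 and which the choice by symbol leaves out. On the Col-0 arrays its signal was 15.1, 1.70 and 5.18, and on the sid2.2 arrays 1.80, 1.99 and 3.09, below the bacterial control level on every array. A fold between genotypes is therefore not given. No signal of this neighbour was measurable beside that of CML38.

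CML41 differed between genotypes mainly in culture 2. CML41 (AT3G50770, chromosome 3) encodes a sensor at plasmodesmata, the channels between plant cells, where it promotes callose deposition and closure after bacterial flagellin is perceived. Its intensities were 378, 172 and 432 in Col-0 (mean 327 ± 138, SD, n = 3) against 364, 740 and 474 in sid2.2 (mean 526 ± 193, SD, n = 3). Culture 2 held both the lowest signal, in Col-0, and the highest, in sid2.2, while the other 4 arrays lay between 364 and 474. The within-culture differences were -0.05, 2.11 and 0.13. Over all arrays the difference was 0.73 (SE 0.40, 95% interval -0.18 to 1.64, limma adjusted p = 0.745). Without culture 2 it was 0.04 (limma adjusted p = 0.999), without Col-0 replicate 2 0.32 (limma adjusted p = 0.990) and without sid2.2 replicate 2 0.45 (limma adjusted p = 0.998). It was larger without Col-0 replicate 3 (0.98, 95% interval 0.09 to 1.88, limma adjusted p = 0.229) and without sid2.2 replicate 1 (0.96, limma adjusted p = 0.895). Leaving out culture 1 gave 1.12 (limma adjusted p = 0.999) and leaving out culture 3 gave 1.03 (95% interval 0.04 to 2.01, limma adjusted p = 0.207).

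CML23 had a small difference in the same direction in each culture by signal intensity, but not relative to the bacterial control level. CML23 (AT1G66400, chromosome 1) acts with its close relative CML24 in flowering time and in nitric oxide levels. Its intensities were 103, 102 and 73.3 in Col-0 against 116, 156 and 80.6 in sid2.2, with overlap. They were 3.34, 3.54 and 2.30 times the bacterial control level in Col-0 against 2.96, 5.59 and 2.02 times in sid2.2. Relative to that level sid2.2 was thus lower in cultures 1 and 3. The within-culture differences were 0.18, 0.62 and 0.14, and the difference over all arrays was 0.31 (SE 0.33, 95% interval -0.44 to 1.06, limma adjusted p = 0.848). Culture 3 was lowest in both genotypes. Single arrays moved the value: it was 0.08 without sid2.2 replicate 2 (limma adjusted p = 0.998), 0.15 without Col-0 replicate 3 (limma adjusted p = 0.865) and 0.56 without sid2.2 replicate 3 (limma adjusted p = 0.782). Without culture 2 it was 0.16 (limma adjusted p = 0.999), and without Col-0 replicate 2 it was 0.39 (limma adjusted p = 0.990). The direction turned, to -0.08 (limma adjusted p = 0.956), when sid2.2 replicate 2 and Col-0 replicate 3 were both left out.

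CML30 (AT2G15680, chromosome 2), which encodes a CML protein targeted to mitochondria, differed in opposite directions between cultures. Its intensities were 104, 135 and 222 in Col-0 against 203, 224 and 99.8 in sid2.2. The within-culture differences were 0.96, 0.73 and -1.15, so culture 3 stood against the other cultures. The difference over all arrays was 0.18 (SE 0.40, 95% interval -0.73 to 1.09, limma adjusted p = 0.928), and its residual SD of 0.60 exceeded that of 86.9% of probe sets. Its direction turned without Col-0 replicate 1 (-0.07), sid2.2 replicate 2 (-0.04), culture 1 (-0.21) or culture 2 (-0.09). Without Col-0 replicate 2 the difference was 0.12 (limma adjusted p = 0.990), without Col-0 replicate 3 0.48 (limma adjusted p = 0.559), without sid2.2 replicate 3 0.54 (limma adjusted p = 0.786) and without culture 3 0.84 (95% interval 0.10 to 1.59, limma adjusted p = 0.170).

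CML42 was the only tested member with a mean difference under 0. CML42 (AT4G20780, chromosome 4) takes part in trichome branching and acts as a negative regulator of jasmonate-linked defence, opposite to CML37. Its intensities were 568, 412 and 909 in Col-0 (mean 630 ± 254, SD, n = 3) against 434, 649 and 583 in sid2.2 (mean 555 ± 110, SD, n = 3). The highest array was Col-0 replicate 3 and the lowest Col-0 replicate 2, so the spread within Col-0 spanned all sid2.2 values. The difference was -0.13 (SE 0.32, 95% interval -0.85 to 0.60, limma adjusted p = 0.938), and within cultures it was -0.39, 0.65 and -0.64. Without Col-0 replicate 3 it was 0.18 (limma adjusted p = 0.782), and without sid2.2 replicate 1 it was 0.04 (limma adjusted p = 0.987). On the other side of 0, it was -0.25 without sid2.2 replicate 2 (limma adjusted p = 0.998), -0.39 without Col-0 replicate 2 (limma adjusted p = 0.990) and -0.51 without culture 2 (limma adjusted p = 0.999).

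CML43 (AT5G44460, chromosome 5), the closest relative of CML42 and known for induction by bacterial pathogens, had 57.1, 51.1 and 69.3 in Col-0 against 95.2, 72.8 and 66.2 in sid2.2. These signals were 1.66 to 2.61 times the bacterial control level. The difference was 0.39, with 0.74, 0.51 and -0.07 within cultures. An exact permutation test over the 6 arrays gave p = 0.2 (two-sided, with 0.1 the smallest p that 3 against 3 allows). In a fit without the low-signal limit the limma adjusted p was 0.868.

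**Figure D2:**
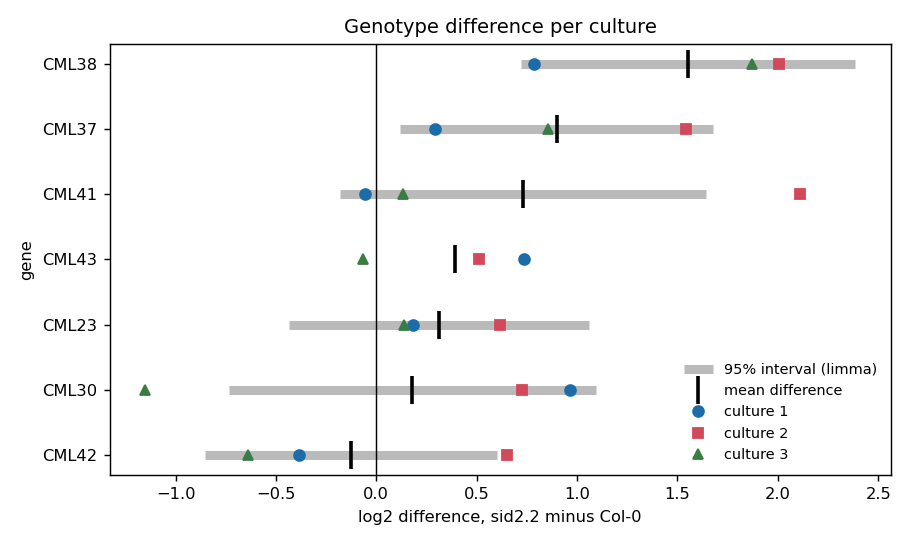
Log2 difference, sid2.2 minus Col-0, of each CML gene within cultures 1, 2 and 3 (coloured points), with the mean difference (black tick) and limma's 95% interval (grey bar, not given for CML43, which was under the low-signal limit). The bars of CML38 and CML37 lie above 0, and culture 2 gives the highest point in 5 of the 7 genes.

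None of the 6 tested members was called at an adjusted p under 0.05 (limma), where 0.0220% of all 13647 probe sets were called in either direction and 0.0147% as higher in sid2.2. With culture as a replicate block 0 probe sets were called, and the adjusted p was 0.895 for CML38 and 0.998 for CML37. At an unadjusted p under 0.05 and higher in sid2.2 there were 2 of 6, CML38 and CML37, against 4.65% of all probe sets. The genotypes did not overlap, with sid2.2 higher, for 2 of 6 against 6.40% of all. The sid2.2 array was higher in all 3 cultures for 3 of 6, CML23, CML37 and CML38, against 11.0% of all. Relative to the bacterial control level, however, CML23 was lower in sid2.2 in cultures 1 and 3, and CML37 in culture 1. A difference above 0 was found for 5 of 6 against 49.4% of all. The median difference of the 6 genes was 0.52, against -0.01 over all tested probe sets. That median was 0.27 without sid2.2 replicate 2, 0.35 without Col-0 replicate 2 and 0.67 without Col-0 replicate 3. Without culture 2 it was 0.10, against 0.75 without culture 1 and 0.88 without culture 3. These counts describe 6 genes, which do not respond independently of each other on the same arrays, and the genes were chosen with earlier results of these data known.

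**Figure D3:**
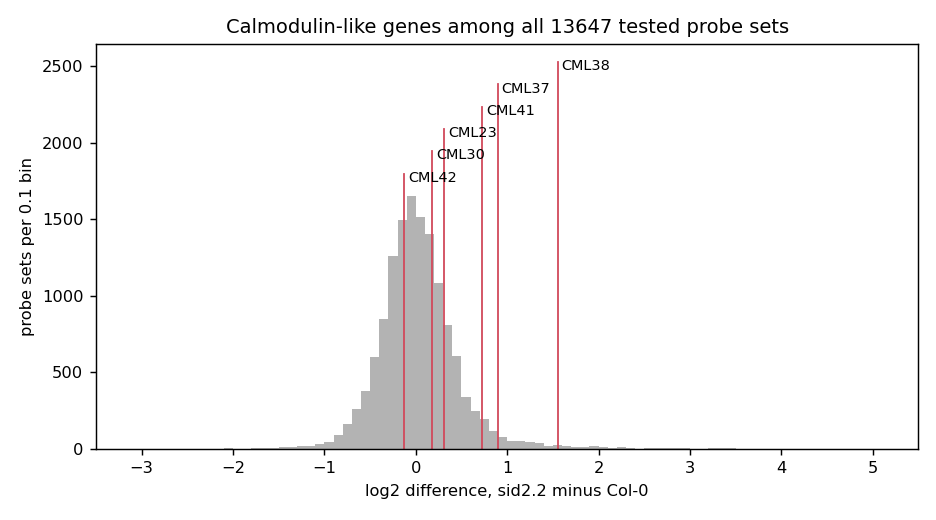
Histogram of the log2 difference, sid2.2 minus Col-0, of all 13647 tested probe sets in bins of 0.1, with red lines at the 6 tested CML genes. CML38 (1.55) lies in the upper tail, where 1.16% of probe sets differ more in either direction, and CML42 (-0.13) lies near the centre.

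Most of the tested members had their highest signal on 1 array. Of the 6 tested genes 5 had their highest signal on sid2.2 replicate 2, all but CML42, where 20.3% of all tested probe sets had theirs. On that array all 6 were above their own mean over the arrays, against 52.6% of all tested probe sets. The median deviation of the 6 genes was 0.77 on the log2 scale, against 0.03 for all tested probe sets. On Col-0 replicate 2, of the same culture, 0 of 6 were above their mean, against 53.2% of all. The median deviation there was -0.47, against 0.03 for all. The lowest signal of CML23, CML37 and CML38 was on Col-0 replicate 3, the array on which CML42 was highest. Within cultures 1, 2 and 3 the median difference of the 6 genes was 0.24, 1.13 and 0.13, with 4, 6 and 4 of them higher in sid2.2. For all tested probe sets the corresponding medians were 0.11, 0.002 and -0.07. Culture 2 thus held the largest median, with 1 array per genotype and no test possible within it. The photosynthesis genes PRK and SBPASE had the opposite order in that culture. PRK was highest on Col-0 replicate 2 (13492) and lowest on sid2.2 replicate 2 (5038), and SBPASE likewise (12968 and 5049), with culture 2 differences of -1.42 and -1.36. RCA and LHCB4.1 were highest on sid2.2 replicate 3 and lowest on Col-0 replicate 3. In culture 2 they too were lower in sid2.2, with differences of -0.60 and -0.31. The part of these leaf genes' shift in the CML differences was not tested.

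**Figure D4:**
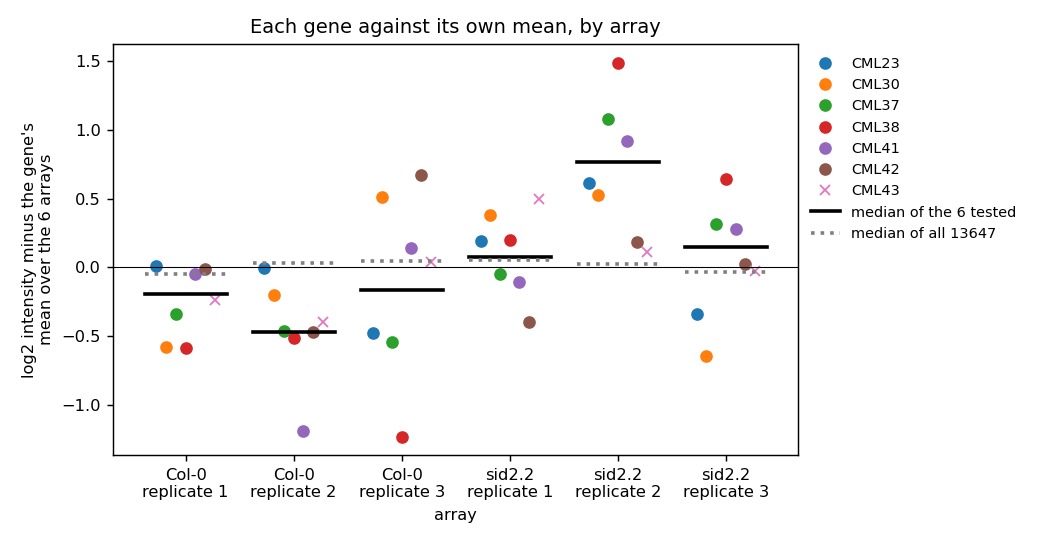
Log2 intensity of each CML gene minus its own mean over the 6 arrays (points; the cross is CML43, under the low-signal limit), with the median of the 6 tested genes (black) and of all 13647 probe sets (grey dots). All 6 tested genes lie above 0 on sid2.2 replicate 2 (median 0.77) and none on Col-0 replicate 2 (median -0.47). Of all tested probe sets, 52.6% and 53.2% lie above 0 on these arrays.

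Around the sensors, calcium signalling was covered by named probe sets in a pair of families. Glutamate receptor-like (GLR) channels, which carry calcium into the cytosol and pass wound signals between leaves, had 6 tested genes of 8 named. None was called, 5 were above 0, and the median difference was 0.20, with a range from -0.20 to 0.60. GLR2.7, the channel gene with the smallest p, had 230, 279 and 384 in Col-0 against 510, 574 and 293 in sid2.2 (difference 0.60, SE 0.32, limma adjusted p = 0.745). Its genotypes overlapped through sid2.2 replicate 3, and within cultures it differed by 1.15, 1.04 and -0.39. GLR2.8 and GLR3.3 differed by 0.45 (adjusted p = 0.793) and 0.18 (adjusted p = 0.889) in the same limma fit.

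IQD proteins, which are scaffolds at microtubules and membranes that bind calmodulin and CML proteins, had 9 tested genes of 15 named. None was called, 4 were above 0 and 5 below, and the median was -0.09. IQD30, IQD23 and IQD24 had the smallest p, with differences of -0.43 (limma adjusted p = 0.775), -0.73 (limma adjusted p = 0.832) and -0.37 (limma adjusted p = 0.840). Calmodulins, calcium-dependent kinases, CBL and CIPK proteins, calcium pumps and cyclic nucleotide-gated channels had no named probe set and were not analysed here.

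Stimuli that are known to induce CML genes were looked at through other genes. For low oxygen, 1 of 23 listed genes had a named probe set, PDC2, a pyruvate decarboxylase of fermentation. Its intensities were 591, 766 and 913 in Col-0 against 1447, 894 and 1589 in sid2.2 (difference 0.77, SE 0.28, limma adjusted p = 0.617). Of the sid2.2 arrays it was lowest on replicate 2, and 1 gene of 23 does not describe the low-oxygen response. Of 49 entries for touch, wounding and elicitors, 6 genes were named and 4 tested, with 0 called, 3 above 0 and a median of 0.52. STZ, a zinc finger repressor induced by calcium-linked stress, had 475, 700 and 918 in Col-0 against 1267, 1738 and 804 in sid2.2 (difference 0.85, SE 0.34, limma adjusted p = 0.645). It was highest on sid2.2 replicate 2, as was PUB24, a ubiquitin ligase of immune signalling (difference 0.66, limma adjusted p = 0.750). WRKY53, a transcription factor of senescence and defence, differed by 0.39 (SE 0.22, limma adjusted p = 0.750) and its genotypes did not overlap. It too was highest on sid2.2 replicate 2. EXO, the remaining tested gene, differed by -0.06 (limma adjusted p = 0.971) and was highest on sid2.2 replicate 3. PUB22 and PUB23, under the low-signal limit, had their lowest signal on sid2.2 replicate 2 (18.4 and 48.5). The part of low oxygen, touch, wounding or elicitors in the CML differences was not tested.

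Leaf age markers had their highest signal on the same array. Of 5 senescence markers 2 were named and tested, and SAG12 was not among them. SAG29, a sugar transporter of senescing leaves, had 86.6, 128 and 172 in Col-0 against 288, 469 and 364 in sid2.2 (difference 1.56, SE 0.32, limma adjusted p = 0.348). WRKY6, a senescence-linked transcription factor, had 57.9, 60.7 and 114 in Col-0 against 137, 216 and 125 in sid2.2 (difference 1.07, SE 0.37, limma adjusted p = 0.581). Both were highest on sid2.2 replicate 2, as CML38 and CML37 were, and the part of leaf age in the CML differences was not tested. The clock gene GI, a mark of harvest time, was the only 1 of 9 listed clock genes with a named probe set. It had 219, 375 and 57.5 in Col-0 against 344, 167 and 761 in sid2.2 (difference 1.07, SE 0.73, limma adjusted p = 0.788). Its lowest and highest signals were both in culture 3, where sid2.2 was 13.2 times Col-0. The part of harvest time in the CML differences was not tested.

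The genes most like each member were sought among the other 7352 genes past the low-signal limit, by Pearson r of log2 signal over the 6 arrays, which come in 3 culture pairs. For CML38 these were AT5G08300 (r = 0.988), the cell wall peroxidase PRX52 (r = 0.976) and AT1G07590 (r = 0.966). PRX52 had 91.2, 78.7 and 60.5 in Col-0 against 162, 255 and 197 in sid2.2. Its highest array, sid2.2 replicate 2, and its lowest, Col-0 replicate 3, were those of CML38, a likeness that the choice by r brings with it. For CML37 they were AT1G56060 (r = 0.991), AT5G26110 (r = 0.987) and AT5G08350 (r = 0.985). AT1G56060 had 201, 167 and 185 in Col-0 against 309, 784 and 399 in sid2.2. The lack of overlap, as for CML37, likewise comes with the choice by r and is no separate observation.

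For CML41 the nearest genes were VPS60.1, of the vesicle-sorting machinery (r = 0.994), AT1G62790 (r = 0.990) and AT5G10695 (r = 0.989). For CML42 they were AT5G37710 (r = 0.984), AT5G25240 (r = 0.977) and AT5G41400 (r = 0.974), and for CML23 AT5G45000 (r = 0.955), AT3G30160 (r = 0.945) and AT3G26930 (r = 0.943). For CML30 they were AT1G31790 (r = 0.995), AT3G61010 (r = 0.994) and AT1G16650 (r = 0.992). With 6 arrays such values are common: an r above 0.9 was reached by 36 genes for CML38, 40 for CML37, 182 for CML41, 75 for CML42, 12 for CML23 and 258 for CML30. No CML gene was among the 3 nearest of another, but this does not mean that their profiles differed. CML38 and CML37 were both highest on sid2.2 replicates 2, 3 and 1, in that order, and lowest on Col-0 replicate 3.

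**Figure D5:**
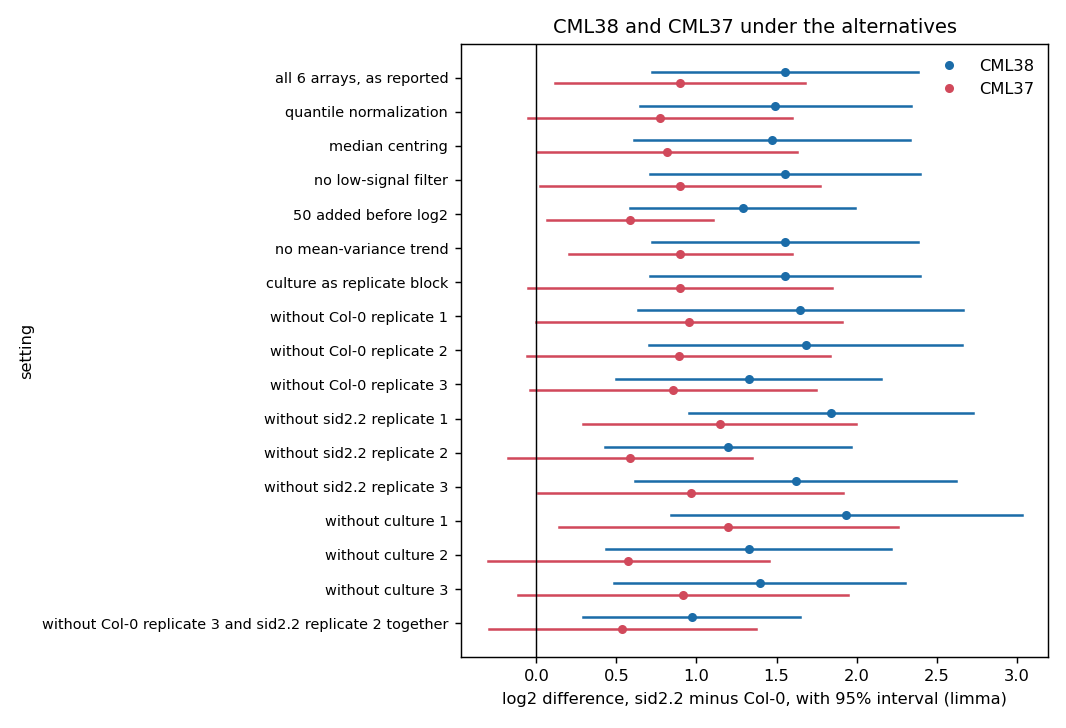
Log2 difference, sid2.2 minus Col-0, of CML38 (blue) and CML37 (red) with limma's 95% interval, for all 6 arrays and under each alternative that could be run for them. CML38 stays between 0.97 and 1.94 with intervals above 0, and CML37 stays between 0.54 and 1.2 with intervals that reach 0 in several settings.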

How the data were processed

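RNA of whole rosettes was labelled with biotin from 200 ng total RNA per pool, per the labels' protocols, and measured on an oligonucleotide array whose 22810 probe sets include 64 controls. The values the authors deposited are signal intensity on a linear scale, and the submitters' processing notes name MAS5, whose version is not given in the sources used here. After the outer 2% at each end were left out, array means were 499.76 to 499.79, which shows scaling to a common level. The 3 arrays per genotype limit the precision.

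Probe sets were named through the platform annotation (13513 with 1 gene, 503 with several, 8794 with none), with symbols updated by gene identifier from RefSeq (TAIR10.1). The files name no genome build, so no coordinates are given. Values were log2 transformed, and controls were left out together with the dimmest 40% of probe sets by mean. The genotype test was limma (version 3.58.1, under R 4.3.3; lmFit, eBayes with trend, two-sided, Benjamini-Hochberg over 13647 probe sets, call at 0.05). The fit was tested on simulated data with independent noise on each array, so that test did not cover outlying arrays.

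Every CML gene is named, with the 3 genes of smallest p per list and the 3 genes of highest r per tested member. Members and lists were chosen with earlier results of these data known. Same-numbered arrays share a culture per the labels, so the numbers pair them. Their deviations from the genotype means correlated at -0.03, -0.53 and -0.55, and culture as a block was an alternative. Other alternatives changed scaling, filter, offset, trend and the arrays kept. Nothing in the labels beyond the culture numbers says how separate the pools were, so p-values measure the spread between these pools.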

Additional observations from a re-analysis of the deposited data

How the results depend on the processing

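No CML gene that entered a limma fit was called under any of 17 alternatives. CML43 entered only the fit without the low-signal limit. The lowest limma adjusted p was 0.0816 (CML38 without culture 3), and over its 16 alternatives CML38 ran from 0.0816 to 0.999 in adjusted p and from 0.97 to 1.94 in log2 difference. CML37 ran from 0.54 to 1.2, and CML38, CML37, CML41 and CML43 kept their direction under each alternative run for them. The median difference of the tested members stayed between 0.10 (without culture 2) and 0.88 (without culture 3). Of 112 member values under alternatives 102 kept the direction of the reported value and 10 turned. CML42 turned without Col-0 replicate 3 (0.178), sid2.2 replicate 1 (0.0421), culture 1 (0.00588), culture 3 (0.133), and Col-0 replicate 3 with sid2.2 replicate 2 (0.0556). CML30 turned without Col-0 replicate 1 (-0.0662), sid2.2 replicate 2 (-0.0391), culture 1 (-0.213) or culture 2 (-0.0942), and CML23 without both sid2.2 replicate 2 and Col-0 replicate 3 (-0.0770). With single arrays or cultures left out CML42 ran from -0.514 to 0.178 and CML30 from -0.213 to 0.845.

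Over all probe sets limma called 3 with all arrays, 1 with quantile normalization, 5 with 50 added before log2, 1 without the mean-variance trend, and 0 without the low-signal filter, with 60% of probe sets left out or with culture as a replicate block. Leaving out single arrays or cultures gave 0 to 728 calls, 302 without Col-0 replicate 3 and 728 without culture 3, and leaving out sid2.2 replicate 2 and Col-0 replicate 3 together, chosen after seeing the data, gave 235. The cause of these shifts was not tested. With 60% of probe sets left out only CML41 and CML42 remained above the limit. Each gene had 1 probe set, so the planned comparison of probe sets was not run. CML43, and CML37 in Col-0 and on sid2.2 replicate 1, lie near the background level, where signal limits what can be seen. The same holds for CML23 on Col-0 replicate 3 and sid2.2 replicate 3 (2.30 and 2.02 times the bacterial control level). CML30 on sid2.2 replicate 3 stood at 2.50 times that level.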
